A study of Mus musculus with 2 samples.

Results

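The mitotic-gene-high cells described here were 753 of 29003 cell barcodes from single-cell RNA libraries of mouse MC38 tumors, 461 in the untreated library and 292 in the library of tumors given MSA-2. They were chosen by measured values, in 2 steps. Marker-negative cells were first taken as barcodes with at least 8000 unique molecular identifiers (UMIs, each standing for 1 captured transcript) and at most 20% mitochondrial UMIs. They also stayed within limits on genes marking immune, fibroblast and endothelial cells, and the name does not mean that such transcripts were absent. The limits were less than 0.03% of UMIs for Ptprc, Tyrobp, Fcer1g and Cd3e summed, less than 0.1% for Col1a2 and Dcn summed, and at most 1 UMI of Cdh5 and Cldn5. Of the 7532 marker-negative cells, the 10% with the highest summed share of UMIs from Cenpf, Ccnb1, Cdc20, Plk1, Aurka and Aspm are the mitotic-gene-high cells, and the remaining 6779 are called the other cells.

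MC38 is a mouse colon adenocarcinoma line, grown here as subcutaneous tumors in young C57BL/6 mice. The paper states that both sexes were used for its MC38 tumor models as a whole. MSA-2 is a small molecule that activates STING, the adaptor that switches on interferon genes when DNA is sensed in the cytoplasm. Tumors received 3 intratumoral injections at intervals of 3 days, of MSA-2 in the treated group and, by the study's design text, of saline with 10% DMSO in the group whose label reads untreated. Material from 3 mice was pooled for each condition, so there was 1 library per condition and no replicate, and the comparison asks how the tumors' cells differ after STING activation. Intervals on levels, shares and ratios below are exact 95% intervals that cover counting error only, those on median depth are 95% order-statistic intervals over cells, and the spread between tumors is unknown.

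The untreated library held 14386 barcodes with 198135335 UMIs and the MSA-2 library 14617 barcodes with 204387165 UMIs. Marker-negative cells made up 33.0% of untreated against 19.0% of MSA-2 barcodes, 4752 and 2780 cells. The limit on Col1a2, a collagen chain, and Dcn, the matrix proteoglycan decorin, removed a different part of each library. Among barcodes with at least 8000 UMIs, 1177 (15.9%) in the untreated library but 4284 (56.8%) of those with MSA-2 were past it. The barcodes that failed this limit alone, 1046 and 3947, carried 2460.2 and 2589.8 CPM (UMIs of a gene scaled to the same total in each group) of Dcn and 1329.6 and 614 CPM of Col1a2, and 889 and 3431 of them would have passed on Col1a2 alone. Of these barcodes, 49 (4.68%, 3.49 to 6.15) and 267 (6.76%, 6.001 to 7.59) had a summed share of the 6 genes at or above the lowest mitotic-gene-high cell. Which cells these are was not tested, and the mitotic-gene-high cells stand for the marker-negative part of each tumor alone. Between the libraries, 53 barcode sequences were shared among all barcodes, 4 among marker-negative cells and 0 among mitotic-gene-high cells.

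Cells that enter mitosis have copied their DNA and build up a set of transcripts in G2 that peaks as chromosomes condense and the spindle forms. Cyclin B with its kinase drives entry, Aurora and Polo kinases organise the spindle and the kinetochores, and the anaphase-promoting complex ends mitosis by marking cyclin B and securin for destruction. These transcripts are present in late G2 as well as in mitosis itself, so RNA shares do not tell the phases apart, and whether a cell was in mitosis was not tested here.

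The cells came from tumors, but the 9 markers of tumor epithelium searched were close to absent. The genes (Krt8, Krt18, Krt19, Krt7, Epcam, Cdh1, Cldn7, Lgals4 and Cdx2) summed to 1.54 and 1.72 CPM in the untreated and MSA-2 mitotic-gene-high cells and to 1.89 and 1.23 CPM in the other cells. None of the 9 passed the filter of a mean of 10 CPM over the 4 groups of cells. Krt19, Epcam and Cdx2 had no UMI in the untreated and Cldn7 and Cdx2 none in the MSA-2 mitotic-gene-high cells, and the most abundant gene in each was Cdh1, at 0.492 and 0.954 CPM. Krt14, an epithelial keratin outside these 9 and singled out after its values had been seen, was higher, at 19.99 and 13.5 CPM against 27.2 and 10.5 CPM in the other cells. The cells are therefore named by their genes and not as epithelial tumor cells, and whether they descend from the MC38 line was not tested.

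Markers of other cell types were present as well, at levels that differed between the libraries. The 9 macrophage and monocyte markers summed to 519.9 and 145 CPM in the untreated and MSA-2 mitotic-gene-high cells, with Cd74 and C1qa the most abundant in turn, and the 6 fibroblast markers to 757 and 488 CPM, most of it Col3a1. Col3a1 alone stood at 636 and 370 CPM, beside 439 and 379 CPM of Cenpf, the most abundant of the 6 choosing genes. The 5 neutrophil markers summed to 7.32 and 455 CPM, far apart between the libraries, and are taken up with the treatment results. The 7 T and NK cell markers came to 22.3 and 5.91 CPM, the 4 B and plasma cell markers to 31.98 and 6.58 CPM and the 5 endothelial markers to 16.7 and 9.16 CPM. The pair of hemoglobin genes stood at 0.123 CPM in the untreated cells and had no UMI in the MSA-2 cells. What these transcripts contribute to the other results was not tested.

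The 6 genes that chose the cells act in different parts of mitosis, and their levels are a description of the choice. Cenpf (ENSMUSG00000026605), which encodes a large kinetochore and microtubule-binding protein, stood at 439 CPM (428 to 449) in the untreated and 379 CPM (367 to 391) in the MSA-2 mitotic-gene-high cells, against 45.9 and 62.7 CPM in the other cells. Ccnb1 (ENSMUSG00000041431), cyclin B1, the partner of the mitotic kinase Cdk1, stood at 272 CPM (264 to 279.7) and 245 CPM, against 38.03 and 46.3 CPM. For Cdc20 (ENSMUSG00000006398), an activator of the anaphase-promoting complex, the values were 351 and 298 CPM against 47.9 and 68.2 CPM. All 3 were thus several times higher than in the other cells of the same library, and in each the untreated value was above the MSA-2 value in the chosen cells and below it in the others. The kinases Plk1 (ENSMUSG00000030867) and Aurka (ENSMUSG00000027496), which act at centrosomes and the spindle, gave 148 and 124 CPM against 18.6 and 26.2 CPM and 113 and 106 CPM against 14.5 and 24.1 CPM. Aspm (ENSMUSG00000033952), a protein of the spindle poles, gave 75.8 and 73.7 CPM against 9.78 and 14.2 CPM. Summed, the 6 genes came to 1398 CPM (1380.1 to 1416) in the untreated and 1226 CPM (1205 to 1247) in the MSA-2 cells, and 175 CPM (172 to 177) and 242 CPM (238 to 245) in the other cells.

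**Figure D1:**
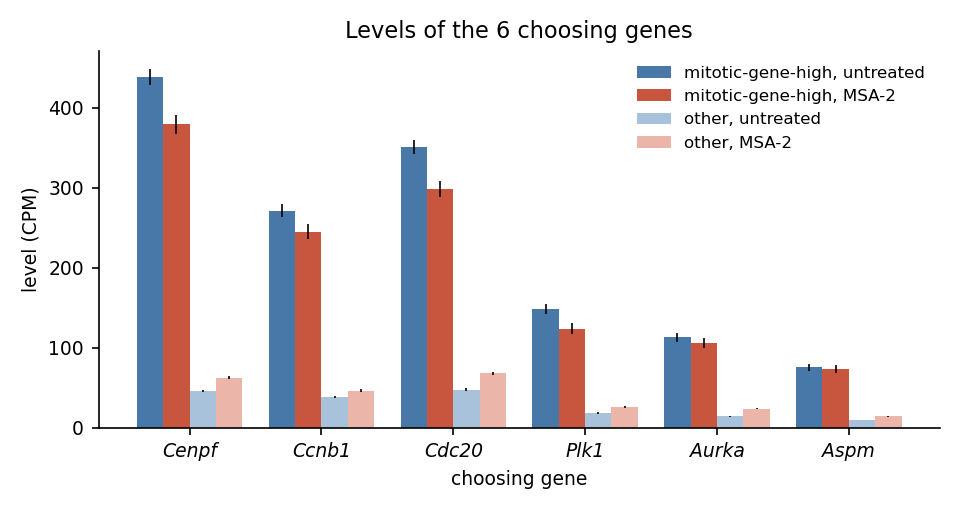
Bars give the level of each of the 6 choosing genes in CPM (linear axis from 0) in mitotic-gene-high and other cells of the untreated and MSA-2 libraries, with 95% Poisson intervals that cover counting error only. Cenpf stood at 439 and 379 CPM in the chosen cells against 45.9 and 62.7 CPM in the others, and in all 6 genes the untreated bar is the higher of the chosen pair and the lower of the other pair, except that with equal weight for each cell Aspm in the chosen cells is higher in the MSA-2 library.

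Most of the chosen cells carried the whole set. UMIs of all 6 genes were seen in 318 (69.0%) of 461 untreated cells and in 197 (67.5%) of 292 with MSA-2, and of 5 genes in 107 and 67. Only 1 gene of the 6 was seen in 1 untreated cell and in 0 MSA-2 cells. The lowest chosen cell had 844.1 CPM of the 6 genes, from 13 of 15401 UMIs, and the highest cell not chosen had 841.9 CPM, from 33 of 39199 UMIs. Near the threshold, 123 chosen cells lay within 10% above it and 131 other cells within 10% below it, so the border divides a continuous range and not separate groups. The highest share was 3796 CPM, and the fewest UMIs of the 6 genes in a chosen cell was 7.

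UMIs of these genes were also seen in barcodes of cells not expected to divide, and whether free RNA, doublets or another source gave them was not tested. Neutrophils do not divide, and in the 2675 neutrophil barcodes of the MSA-2 library (S100a8 and S100a9 at least 2% of UMIs, median 1782 UMIs) the 6 genes summed to 74.0 CPM (66.8 to 81.7), with a UMI in 12.3% of barcodes. Among marker-negative cells, at median depths of 23897.5 and 24399 UMIs, 75.1% of untreated against 87.0% of MSA-2 cells had such a UMI. A UMI of these genes alone therefore does not mark a dividing cell at this depth. For single genes, the neutrophil barcodes held 16.96 CPM of Cenpf, 21.2 CPM of Cdc20 and 5.53 CPM of Aspm. In the MSA-2 mitotic-gene-high cells, Cenpf was seen in 97.9% and Aspm in 82.9% of cells. The untreated library held 11 neutrophil barcodes with 1 UMI of the 6 genes in all, too few for a level. Monocyte barcodes, marked by Ly6c2 together with Tyrobp and Fcer1g, were therefore added as a class after the data had been seen, and gave 58.3 CPM (48.9 to 69.0) in the untreated and 53.8 CPM (45.2 to 63.5) in the MSA-2 library. Those intervals overlap, and the share of monocyte barcodes that themselves divide was not tested.

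Across all marker-negative cells, the summed share of the 6 genes was spread differently in the 2 libraries. The median cell had 91.8 CPM in the untreated and 181 CPM in the MSA-2 library, while the value exceeded by the top 5% of cells was 1262 and 1123 CPM and the highest cells reached 3796 and 3356 CPM. The MSA-2 library thus had the higher middle and the lower upper end. No UMI of the 6 genes was seen in 1185 (24.9%) untreated and 361 (13.0%) MSA-2 cells. After each cell was thinned to 8000 UMIs, 45.3% (43.9 to 46.8) and 29.2% (27.5 to 30.9) had none, 24.5% and 35.0% had at least 3, and 5.77% and 4.64% had at least 10. The order of the libraries at the low end and at the high end is therefore opposite at equal depth as well. With no limit on Dcn, an alternative chosen after seeing the data, 28.2% and 18% of 11852 cells had none and the medians were 79.9 and 146 CPM.

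**Figure D2:**
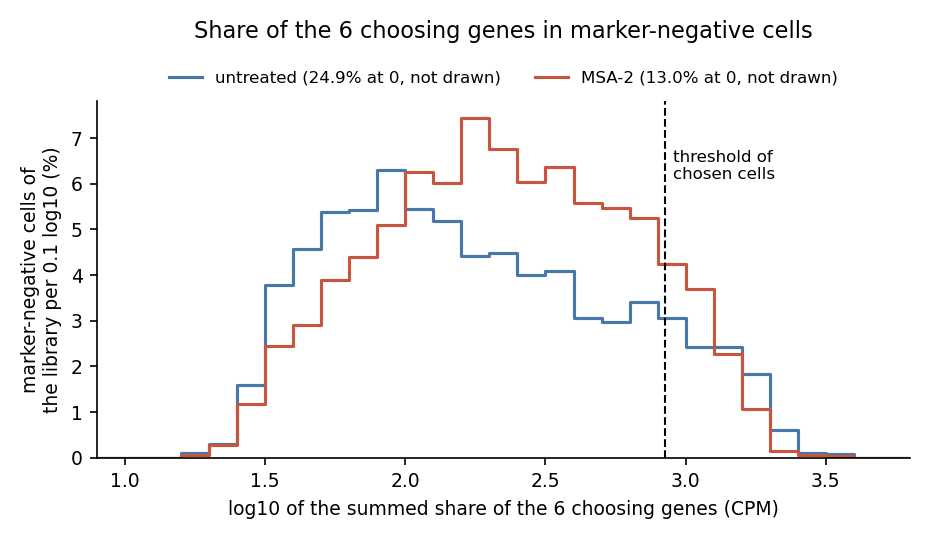
The line for each library gives the percentage of its marker-negative cells (vertical axis) in steps of 0.1 on a log10 axis of the summed share of the 6 genes in CPM, and the dashed line is the threshold of the chosen cells. Cells with no UMI of the 6 genes, 24.9% in the untreated library against 13.0% with MSA-2, are not drawn, and the median cell lies at 91.8 CPM in the untreated and 181 CPM in the MSA-2 library.

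The share of marker-negative cells that passed the common threshold was close in the 2 libraries at the limits used, and not under stricter ones. It was 9.70% (8.87 to 10.6) in the untreated and 10.5% (9.39 to 11.7) in the MSA-2 library, a log2 ratio of 0.11 with an interval of -0.10 to 0.33. The interval covers the counting of cells alone and, with 1 library per condition, cannot show whether the conditions differ, and the direction turned with the threshold. With the top 5% chosen, the log2 ratio was -0.45, and with the top 20% it was 0.40. Stricter marker limits allowed no UMI of the immune and endothelial genes and a lower share of Col1a2 and Dcn. They left 720 cells, with 24 untreated and 48 MSA-2 cells chosen, and the log2 ratio was 0.90, from 6.90% and 12.9% of cells. With no limit on Dcn, 558 (9.89%) and 627 (10.1%) of the cells were chosen. Within the chosen cells, the median share of the 6 genes was 1278 CPM in the untreated and 1109.7 CPM in the MSA-2 library.

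The mitotic-gene-high cells also had more UMIs per barcode, and whether they held more RNA was not tested. Their median depth was 33732 UMIs (31350 to 36444) in the untreated and 33858 UMIs (30825 to 37184) in the MSA-2 library, against 23095 and 23578 UMIs in the other cells. The ratio of the medians was 1.46 and 1.44, and under stricter marker limits it was 1.04 and 1.10. Those limits allow no UMI of the immune and endothelial genes at any depth, so the setting itself bears on depth. They had 5943 and 5997.5 detected genes in the median cell against 4903 and 5002, and 2.37% and 2.77% mitochondrial UMIs against 2.71% and 2.96%. The choice used shares and not totals, but a minimum of UMIs, and the part that depth plays in the gene results was not tested.

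Between the mitotic-gene-high and the other cells, genes are compared as log2 ratios of CPM with 1 CPM added, over the 8027 genes with a mean of at least 10 CPM, and a gene is called at 2-fold or more in the same direction in both libraries. This contrast follows from the choice of the cells, so the counts and medians describe the cells and support nothing further. At least 2-fold higher were 111 genes (1.38% of those tested), 105 of them not used in the choice, and 6 genes (0.0747%) were lower. The count of 111 was 73 with 10 CPM added and 45 at a mean of at least 50 CPM. In single libraries, 144 genes (untreated) and 112 (MSA-2) were past 2-fold higher, and 16 and 10 past 2-fold lower. The list of 123 G2 and mitosis genes without the 6 choosing genes, of which 122 passed the filter, gave 67 of the 105, with a median log2 ratio of 1.42 and 1.09 in the untreated and MSA-2 libraries beside 0.01 and 0.03 over all genes tested. Of the 122, 121 were above 0 in each library, the exceptions being Cdc16 in the untreated and Mybl2 in the MSA-2 library, both at -0.05.

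**Figure D3:**
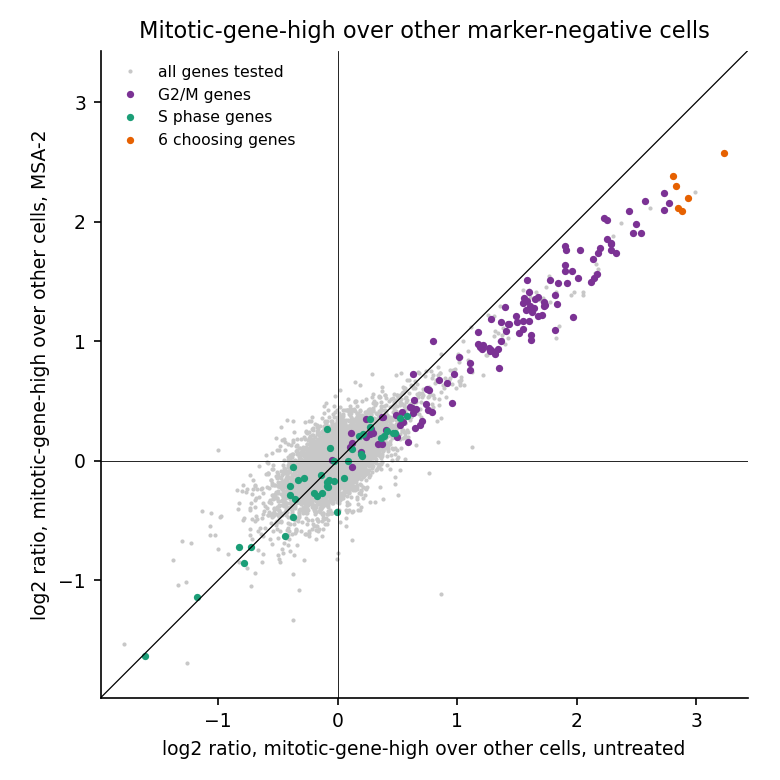
Each point is a gene, with the log2 ratio of mitotic-gene-high over other cells in the untreated library on the horizontal and in the MSA-2 library on the vertical axis, both of CPM with 1 added, and the diagonal marks equal ratios. The G2 and mitosis genes (purple, medians 1.42 and 1.09) and the 6 choosing genes (orange) lie to the upper right, most of them below the diagonal, while the S phase genes (green, medians -0.08 and -0.14, the first of them 0.05 with equal weight for each cell) lie around the mass of all genes in grey.

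Genes of the spindle and its motors had the highest list median among the parts of the G2 and mitosis list. Of 32 genes, 26 were at least 2-fold higher in both libraries (background 1.38%), and the median was 1.90 and 1.57, beside 0.01 and 0.03 for all genes. Tpx2, which activates Aurka on spindle microtubules, stood at 258 and 227 CPM against 56.6 and 76.3 CPM in the other cells. Tubb4b, a beta tubulin, stood at 612 and 449.9 CPM against 202 and 199.6 CPM, and Stmn1, which destabilises microtubules, at 552 and 325 CPM against 327 and 242 CPM. Nusap1, which binds and bundles spindle microtubules, stood at 141 and 129 CPM against 20.4 and 26.7 CPM, with log2 ratios of 2.73 and 2.24. The midzone bundler Prc1 had ratios of 2.43 and 2.09, the hyaluronan receptor Hmmr, also found at spindle poles, 2.57 and 2.17, and the kinesins Kif2c, Kif20b, Kifc1 and Kif23 lay between 1.78 for Kif23 in the MSA-2 and 2.73 for Kif2c in the untreated library. Tuba1c, an alpha tubulin, and Stmn1 differed less, with ratios of 0.79 and 0.41 and of 0.75 and 0.43.

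Kinetochore genes encode the proteins through which chromosomes attach to the spindle. Of 18, 8 were called higher (background 1.38%), with a median of 1.22 and 0.97 beside 0.01 and 0.03 for all genes. Cenpa, the histone variant that marks centromeres, stood at 415 and 301 CPM against 84.3 and 85.1 CPM, and Cenpe, a kinesin that moves chromosomes to the metaphase plate, at 232 and 190.5 CPM against 33.1 and 41.99 CPM. Ndc80, which holds microtubule ends, had ratios of 1.81 and 1.09, while Cenph, a constitutive centromere protein named after its value had been seen, had 0.29 and 0.24.

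The chromosomal passenger complex, which corrects faulty attachments and guides cytokinesis, was the list outside the choice with every gene called. All 4 of its genes were at least 2-fold higher in both libraries (background 1.38%), with a median of 1.64 and 1.31. Birc5, survivin, stood at 547 and 428 CPM against 190.2 and 203 CPM, and Cdca8, borealin, at 360 and 316 CPM against 94.8 and 112 CPM. Incenp, the scaffold, had ratios of 1.65 and 1.35 and Aurkb, the kinase of the complex, 1.64 and 1.27. In the spindle checkpoint, which holds anaphase until all kinetochores are attached, 6 of 12 genes were called (background 1.38%), with a median of 1.22 and 0.98. Bub3 stood at 251 and 214 CPM against 111 and 101 CPM and Bub1b at 104 and 90.3 CPM against 33.1 and 37.7 CPM, both parts of the complex that restrains Cdc20. Zwint, a kinetochore linker counted in this list, had ratios of 0.10 and 0.12, close to those of all genes.

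Genes that drive entry into mitosis were called higher in 10 of 17 cases (background 1.38%), with a median of 1.49 and 1.01. Cks2, a small subunit of the cyclin-dependent kinases, stood at 685 and 610.0 CPM against 242 and 273 CPM, and Cdk1, the mitotic kinase itself, at 377 and 343 CPM against 118 and 132 CPM. Ccna2, cyclin A2, had ratios of 2.02 and 1.76, Ccnb2, cyclin B2, 1.60 and 1.41, and Cdc25b, the phosphatase that frees Cdk1 for activity, 2.23 and 2.03. Wee1, the kinase that holds Cdk1 inactive, was higher by less, 0.63 and 0.72, and Mybl2, a transcription factor of the cell cycle, was near 0, 0.12 and -0.05. For the anaphase-promoting complex, its partners and cohesin, 5 of 19 genes were called (background 1.38%), with a median of 0.64 and 0.36. Ube2c, an enzyme that loads ubiquitin for this complex, stood at 855 and 722 CPM against 147 and 192 CPM, and Ube2s, which extends the chains, at 899 and 739.8 CPM against 458 and 447 CPM. Rad21, a cohesin subunit, had ratios of 1.02 and 0.87, and Cdc16, a core subunit of the complex, -0.05 and 0.00.

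Chromatin and chromosome genes were called higher in 8 of 20 tested (background 1.38%), with a median of 1.25 and 0.94. The histone variant gene H2afz stood at 2670 and 1803 CPM against 1736 and 1330.2 CPM, and Hmgb2, a chromatin protein of dividing cells, at 748 and 779.5 CPM against 295 and 407 CPM. Top2a, the topoisomerase that untangles sister chromosomes, stood at 566 and 584 CPM against 192 and 233 CPM, and Mki67, which coats mitotic chromosomes, had ratios of 1.78 and 1.51. The MSA-2 neutrophil barcodes held 57.6 CPM of Top2a. Arl6ip1, the remaining gene of the 21, was below the filter, at 9.72 and 5.44 CPM.

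Among the 20 genes with the highest ratios outside the choice, some belonged to no list. Sapcd2, a polarity protein that acts on spindle orientation, had the highest, at 54.8 and 33.1 CPM against 6.01 and 6.17 CPM, with ratios of 2.99 and 2.25. The filter of 10 CPM takes the mean of all 4 groups, so Sapcd2 passed it only through the chosen cells. The same holds for others of the 20, such as Nek2, at 5.69 and 7.18 CPM in the other cells. Gas2l3, which links actin and microtubules in cytokinesis, had ratios of 2.30 and 1.88. The rest of the 20 ranged down to Kpna2, an importin that regulates spindle assembly factors, at 1.91 and 1.77. In all, 38 of the 105 called genes lay outside the G2 and mitosis list. Named after their values had been seen, they include Cdca3 at 1.71 and 1.36, Ccnf at 2.16 and 1.65 and Gtse1 at 2.05 and 1.41, genes known from the cell cycle. The cyclin-dependent kinase inhibitor gene Cdkn2d, also picked after its value had been seen, had ratios of 1.95 and 1.39.

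Genes of G2 and mitosis are known to be held in step by promoter elements read by the DREAM and B-MYB complexes at CHR motifs and by NF-Y at CCAAT boxes, so the promoters of 3 choosing genes and of Ube2c, an abundant gene not used in the choice, are shown. They run from 110 bases before to 20 bases after the RefSeq start in build GRCm38.p6, 5′ to 3′ on the strand of the gene, for Cenpf at chr1:189688067-189688196 on the minus strand, Ccnb1 at chr13:100786467-100786596 on the minus strand, Cdc20 at chr4:118437324-118437453 on the minus strand and Ube2c at chr2:164769819-164769948 on the plus strand. Capitals mark matches to the CHR motif TTTGAA, to its variant TTTAAA and to the box CCAAT on either strand, so that TTCAAA in Ube2c, and likewise ATTGG, are matches on the opposite strand, and no matches overlap in the 4 sequences.
Cenpf: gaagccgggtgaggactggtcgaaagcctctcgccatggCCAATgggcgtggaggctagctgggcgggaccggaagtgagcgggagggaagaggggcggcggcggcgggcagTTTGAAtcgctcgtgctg
Ccnb1: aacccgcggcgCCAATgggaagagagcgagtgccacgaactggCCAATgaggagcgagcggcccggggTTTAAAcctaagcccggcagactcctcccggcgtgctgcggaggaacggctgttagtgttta
Cdc20: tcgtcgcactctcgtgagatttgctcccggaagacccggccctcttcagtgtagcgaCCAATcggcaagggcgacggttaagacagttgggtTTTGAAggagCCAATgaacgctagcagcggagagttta
Ube2c: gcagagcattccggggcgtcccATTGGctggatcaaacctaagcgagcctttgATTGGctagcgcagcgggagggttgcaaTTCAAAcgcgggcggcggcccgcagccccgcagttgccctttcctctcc

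Each of the 4 windows held a CCAAT match and a match to TTTGAA or TTTAAA, and the shares in larger sets are given for the same length of window. Over all 27025 genes with a promoter, 24.98% held CCAAT, 8.53% TTTGAA and 6.21% TTTAAA, and 3.06% held CCAAT together with either of the others. Among the 6452 tested genes with a promoter of 8027, 29.3% held CCAAT, 5.13% TTTGAA and 2.76% both kinds. Of the 105 genes higher in the mitotic-gene-high cells, 86 had a promoter, and of these 61 (70.9%) held CCAAT, 36 (41.9%) TTTGAA and 36 (41.9%) both kinds. The G2 and mitosis list gave nearly the same picture, with 61 (61.6%) of 99 holding CCAAT and 41 (41.4%) TTTGAA. Of 43 S phase genes, 32 had a promoter, and of these 17 (53.1%) held CCAAT and 3 (9.38%) TTTGAA. The share with CCAAT was thus above that of all tested genes in the S phase list as well. Among 29 of 38 interferon-stimulated genes with a promoter, 4 (13.8%) held CCAAT. All 6 choosing genes held CCAAT, and 5 held both kinds. A match is a description of letters and shows neither binding nor use of the site.

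At least 2-fold lower in the mitotic-gene-high cells in both libraries (background 0.0747%) were Ung, Igkc, Areg, Ccne1, Ptgs2 and Pcdh9. The count of 6 was 0 with 10 CPM added, 2 at a mean of at least 50 CPM, 3 with the top 20% of cells and 14 under stricter marker limits. Ung, the uracil glycosylase that acts at replication, stood at 5.17 and 4.48 CPM against 17.8 and 16.004 CPM, and Ccne1, cyclin E1, which drives the start of S phase, at 9.96 and 9.54 CPM against 23.8 and 22.2 CPM. Ptgs2, the inducible cyclooxygenase, stood at 75.8 and 127 CPM against 193 and 263 CPM, and Areg, an EGF receptor ligand, at 10.3 and 6.68 CPM against 26.1 and 23.9 CPM. Pcdh9, a protocadherin, had ratios of -1.27 and -1.01. Igkc, an immunoglobulin chain of plasma cells, had ratios of -1.78 and -1.54, but 1 cell held 74.6% of its UMIs in the MSA-2 other cells, 47.3% in the untreated other cells and 61.2% in the untreated mitotic-gene-high cells. With each group's top cell left out, an alternative chosen after seeing the data, the ratios of Igkc were -2.17 and 0.20. Next lowest were the guidance receptor gene Robo2 (-1.38 and -0.83), Adgrl2 (-0.83 and -0.85), Chaf1b (-0.79 and -0.86), which loads histones behind the replication fork, and the matrix gene Tnc (-0.92 and -0.78).

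S phase genes did not follow the G2 and mitosis genes. Of 43 genes, 42 were tested, 0 were called higher (background 1.38%) and 2, Ung and Ccne1, lower (background 0.0747%), and the median was -0.08 and -0.14, though it was 0.05 in the untreated library with equal weight for each cell and 0.45 there under stricter marker limits. Dut, which clears dUTP, stood at 325 and 287 CPM against 346 and 333 CPM, Rrm2, a ribonucleotide reductase subunit, at 129 and 110.2 CPM against 93.2 and 93.9 CPM, and Pcna, the replication clamp, at 91.9 and 81.4 CPM against 125 and 127 CPM. Rrm2 was thus above and Pcna below the other cells, and the list as a whole was mixed, with 16 of 42 genes above 0 in each library. Counted per cell, the S phase list made up 2149.8 and 2129 CPM in the median mitotic-gene-high cell and 1463 and 2063 CPM in the median other cell. The top 10% of marker-negative cells by the S phase list shared 4 of 461 untreated cells with the mitotic-gene-high cells (0.868%, up to 2.21%) and 0 of 292 MSA-2 cells, which allows up to 1.26%. Over both libraries the sets are of equal size, 753 cells each, and the 4 shared cells are 0.531% of each. The S phase set held 574 untreated and 179 MSA-2 cells, and the 4 were 0.697% of its untreated cells. By its choice that set takes 10% of all marker-negative cells. The mitotic-gene-high cells and the cells highest in S phase genes were hence nearly separate sets.

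Of the G1 cyclins and kinases, 6 of 8 were tested and 0 called (background 1.38% higher and 0.0747% lower), with a median of 0.05 and 0.13, the first being -0.03 with TMM factors and also below 0 with the top 5% of cells. Ccnd1, cyclin D1, stood at 545 and 588 CPM against 428 and 442 CPM, and Cdk4, its kinase, at 367 and 236 CPM against 328 and 214 CPM. Among inhibitors of the cell cycle and p53 targets, 16 of 19 were tested and Cdkn2c alone was called, as higher (background 1.38%), at 40.96 and 22.99 CPM against 18.4 and 10.05 CPM, while the list median was 0.00 and -0.10, the first being -0.07 with TMM factors. Btg2, an antiproliferative gene, had ratios of -0.71 and -0.16, and Cdkn1a, p21, -0.38 and -0.38. The list as a whole lay near the median of all genes, with Cdkn2c, an inhibitor of the G1 kinases, as its exception. Cdkn2d, the inhibitor gene given above among the called genes, is not on this list, so Cdkn2c is not the only such gene called.

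List medians outside the cell cycle were at or below those of all genes in the mitotic-gene-high cells, with the STING list and the neutrophil markers as the exceptions. The 3 tested neutrophil markers had a median of 0.48 and 0.14, but with top cells left out all 3 were below 0 in the untreated library, S100a8 at -0.27, Retnlg at -0.01 and S100a9 at -0.45, so single cells set that exception there. The 16 immediate-early genes had a median of -0.27 and -0.20, with 0 above 0 in either library (the sign of the second changed under stricter marker limits), and Jun stood at 2455 and 2077 CPM against 2589.9 and 2097 CPM. For Fos, its partner in AP-1, the ratios were -0.35 and -0.05. The 38 interferon-stimulated genes had a median of -0.16 and -0.17, with 5 and 1 genes above 0 and 0 called (background 1.38% higher and 0.0747% lower). Rsad2, an antiviral enzyme, stood at 120.5 and 852 CPM against 177 and 1040.4 CPM, and Ifitm3, which blocks virus entry, at 1222 and 1782 CPM against 1458 and 2165 CPM. Chemokines and targets of NF-kB had a median of -0.18 and -0.38 over 16 tested of 18, with Ccl5 at -0.63 and -0.85 and Ccl2 at -0.28 and -0.83. In these 3 lists no gene was called in both libraries. The 22 tested genes of hypoxia and glycolysis had a median of -0.26 and -0.17, those of class I antigen presentation -0.07 and -0.02 over 14, and the ATF4 targets -0.01 and -0.01 over 16, the first of these last 0.02 with equal weight for each cell. The STING pathway, with 4 tested of 10 names, gave 0.18 and 0.06, the second being -0.09 with equal weight for each cell. A list of 7 genes that mark states within the tumor, 5 tested, gave -1.004 and -0.40, with Areg called lower and Csmd3, an adhesion gene, at -1.004 and 0.09.

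Over bins of marker-negative cells ordered by the share of the 6 genes, from no UMI to the mitotic-gene-high cells, the G2 and mitosis list rose at each step in both libraries. Its 123 genes summed to 4521 CPM in the lowest, 15586 CPM in the next to highest and 20402 CPM in the highest bin of the untreated library, and to 4989, 13317 and 17401 CPM in the MSA-2 library. The S phase list peaked in the middle, at 3448 CPM in bin 6 of 9 of the untreated and 2834 CPM in bin 5 of the MSA-2 library, and stood at 2292 and 2192 CPM in the mitotic-gene-high cells. So the S phase genes were highest in cells with a middling share of the 6 genes and lower again in the chosen cells. The immediate-early list went from 16419 to 10432 CPM in the untreated and from 10922 to 8399 CPM in the MSA-2 library, and the interferon list from 6434 to 4640.3 and from 11668 to 8515 CPM. Neither fell at each step, and in the MSA-2 library the immediate-early list stood at 8495 CPM in bin 2 and at 9759 CPM in bin 7. Ptgs2 fell at each step, from 321 to 75.8 and from 445 to 127 CPM. Median depth was lowest in bin 1 and highest in bin 9, 17214 and 33732 UMIs in the untreated and 16136 and 33858 UMIs in the MSA-2 library, but did not rise at each step, with 26423 and 18947 UMIs in bins 2 and 3 of the untreated and 27054 and 23465 UMIs in bins 2 and 4 of the MSA-2 library. Its part in the levels was not tested.

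**Figure D4:**
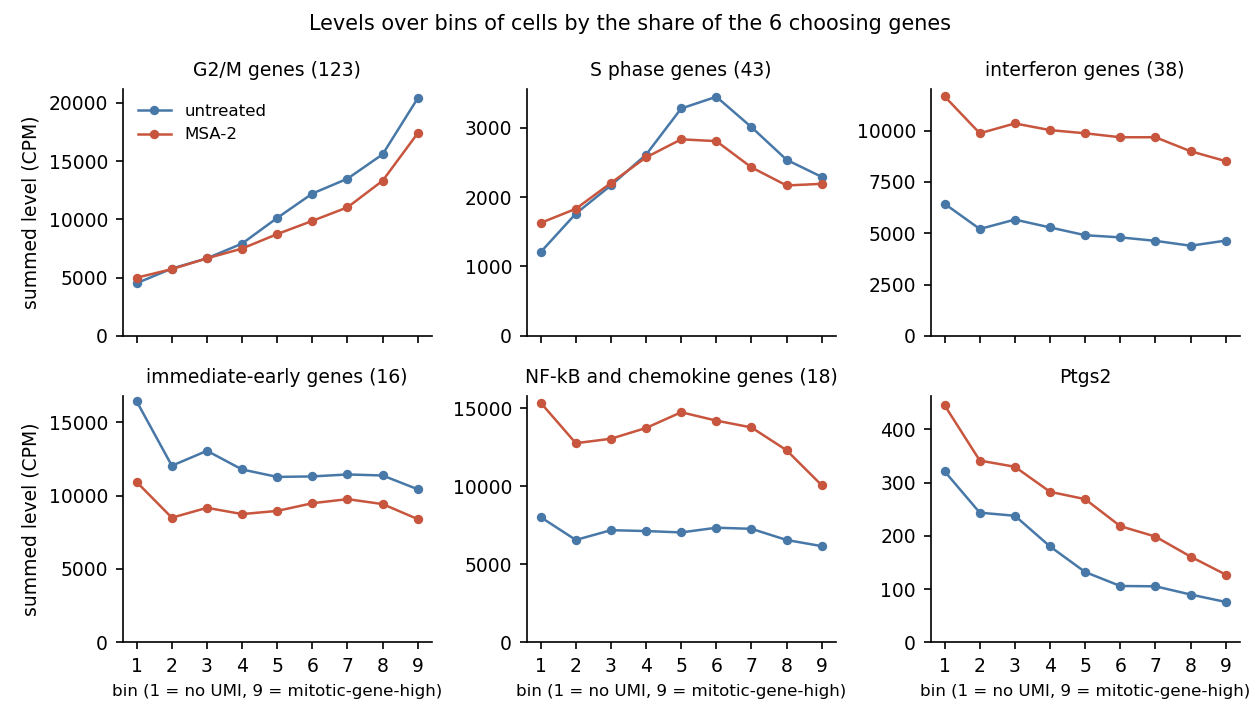
Each panel gives the summed level of a list, or the level of Ptgs2, in CPM (linear axis) over 9 bins of marker-negative cells ordered by the share of the 6 choosing genes, with bin 9 the mitotic-gene-high cells, for the untreated (blue) and MSA-2 (red) libraries. The G2 and mitosis list climbs to 20402 and 17401 CPM in bin 9, the S phase list peaks in bins 6 and 5, and the interferon list ends at 4640.3 and 8515 CPM.

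Cell by cell, the G2 and mitosis genes not used in the choice separated most of the mitotic-gene-high cells from the rest. Their summed share was 20124 CPM in the median untreated cell (quartiles 17530.2 and 22462) and 16959.8 CPM in the median MSA-2 cell, against 6558 and 8339 CPM in the other cells. The highest 10% of other cells began at 14634 CPM in the untreated and 13173 CPM in the MSA-2 library, and 425 (92.2%, 89.4 to 94.5) and 250 (85.6%, 81.1 to 89.4) of the mitotic-gene-high cells lay above this. Below the median of the other cells were 0 of 461 cells in the untreated and 1 of 292 in the MSA-2 library. Since the genes share the contrast of the choice, this describes how even the set is and is no separate evidence for it.

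Between MSA-2 and untreated tumors, the mitotic-gene-high cells had 145 genes (1.81% of 8027) at least 2-fold higher and 74 (0.922%) at least 2-fold lower. The other cells had 171 (2.13%) and 128 (1.59%), and 131 genes were higher and 58 lower in both kinds of cells. The counts of 145 and 74 became 629 and 362 under stricter marker limits, 83 and 31 with 10 CPM added, 369 and 214 without a filter on low genes and 55 and 24 at a mean of at least 50 CPM. Under the stricter limits only 24 untreated and 48 MSA-2 cells were chosen, so the counts of that setting rest on few cells. With 1 library per condition these counts compare libraries and have no replicate check, so they are not counts of changed genes. The G2 and mitosis list differed in direction between the kinds of cells, as its median was -0.15 in the mitotic-gene-high and 0.17 in the other cells, beside -0.03 and -0.02 over all genes. Of 122 genes, 32 were above 0 in the mitotic-gene-high and 94 in the other cells, and 0 were 2-fold apart in either. In the mitotic-gene-high cells these genes were thus slightly lower in the MSA-2 library, and in the other cells slightly higher. Whether the directions differ beyond the spread between tumors was not tested, and the common threshold sets the share of the 6 genes in each kind of cell.

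The lists within it went the same way. Spindle genes had medians of -0.15 in the mitotic-gene-high and 0.22 in the other cells, kinetochore genes -0.25 and 0.13, and the passenger complex -0.20 and 0.19. Entry genes had -0.14 and 0.18, chromatin genes -0.12 and 0.11, and the anaphase-promoting complex with cohesin -0.05 and 0.15. The checkpoint list was nearest to 0 in the mitotic-gene-high cells, -0.02 against 0.23, and the sign of the first changed with the top 5% of cells or a looser limit on Dcn. By gene, Cenpa had log2 ratios of MSA-2 over untreated of -0.46 in the mitotic-gene-high and 0.01 in the other cells, the second below 0 with either other scaling, and Tpx2 -0.18 and 0.42. Stmn1 was lower in both, -0.76 and -0.43, and Tuba1c higher in both, 0.21 and 0.59. The 6 choosing genes, whose values the threshold bears on most, had medians of -0.18 and 0.48. S phase genes were near 0, -0.05 and 0.00, turning to 0.03 and 0.12 with equal weight for each cell.

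**Figure D5:**
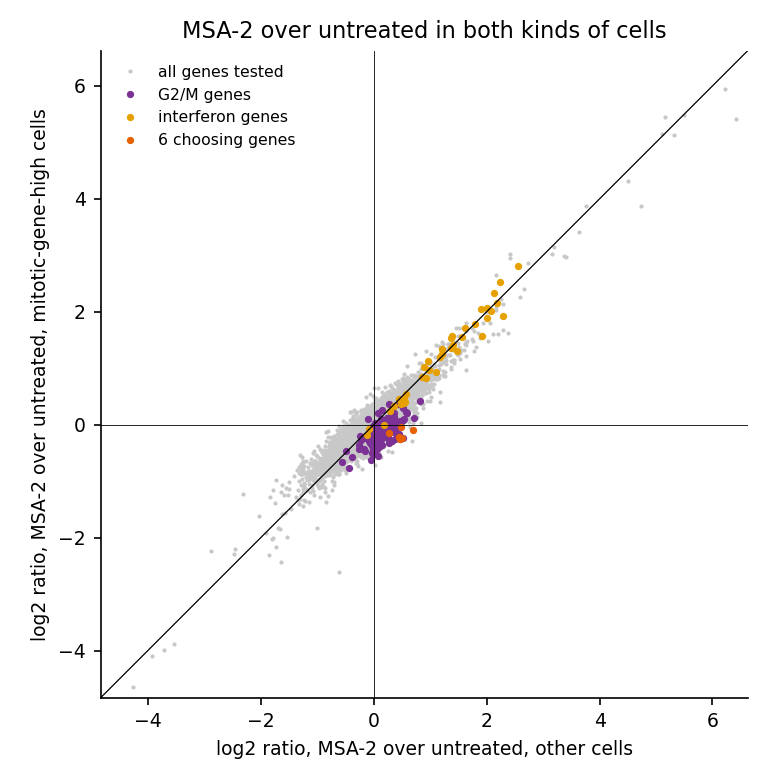
Each point is a gene, with its log2 ratio between the MSA-2 and the untreated library in the other cells on the horizontal and in the mitotic-gene-high cells on the vertical axis, both of CPM with 1 added. Interferon-stimulated genes lie to the upper right (medians 1.21 and 1.28), and the G2 and mitosis genes and the 6 choosing genes lie right of the vertical and below the horizontal line for the most part (medians 0.17 and -0.15 for the G2 and mitosis list).

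Interferon-stimulated genes, the best known targets of STING signalling, were higher in the MSA-2 mitotic-gene-high cells. Of 38 genes, 23 were at least 2-fold higher (background 1.81%) and 36 above 0, with a median of 1.28, and in the other cells 22 were (background 2.13%), with a median of 1.21. Rsad2 stood at 120.5 CPM in the untreated and 852 CPM in the MSA-2 cells, Ifit1, which binds foreign RNA, at 54.1 and 318 CPM, and Isg15, a ubiquitin-like modifier, at 196 and 401 CPM. The more abundant Ifitm3 stood at 1222 and 1782 CPM. Among the exceptions in direction was Gbp2, a guanylate-binding protein, at 351 and 311 CPM. The list medians in the 2 kinds of cells were thus close, and their difference was not tested. Neutrophil markers also went from 7.32 to 455 CPM and macrophage and monocyte markers from 519.9 to 145 CPM in the mitotic-gene-high cells, and how much of the interferon transcripts is free RNA was not tested.

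Among NF-kB targets and chemokines, 6 of 16 genes were at least 2-fold higher in the MSA-2 mitotic-gene-high cells (background 1.81%) and 15 above 0, with a median of 0.75 beside 0.88 in the other cells. Cxcl1, which attracts neutrophils, stood at 909 and 1854 CPM, Cxcl2, with the same role, at 44.8 and 403 CPM, and Cxcl10, which attracts T cells, at 2002 and 3329 CPM. Nfkbia, the inhibitor that NF-kB itself induces, stood at 1190.4 and 1797 CPM. Cxcl9 was the exception in direction, at 135 and 74.8 CPM. Ccl2, which attracts monocytes, was close to level in the mitotic-gene-high cells, 980.3 and 1037 CPM (log2 0.08), and higher in the other cells, 1191 and 1849 CPM (0.63). The 14 tested genes of class I antigen presentation had a median of -0.26 beside -0.34, with H2-K1 at 1975 and 1485 CPM, and Nlrc5, the activator of these genes, as an exception at 31.1 and 54.4 CPM. In the STING list, whose 4 tested genes had a median of 0.29, Cgas, the DNA sensor upstream of STING, stood at 23.99 and 37.7 CPM, while Tmem173, STING itself, was below the filter at 3.81 and 3.34 CPM.

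Other lists moved less or on few genes. Immediate-early genes had medians of -0.35 and -0.45 in the mitotic-gene-high and other cells, with Fos at 1309 and 951 CPM in the former. Hypoxia and glycolysis genes had -0.15 and -0.15, the sign of the first changing under stricter marker limits, and ATF4 targets 0.23 and 0.24, the first of these -0.05 with no limit on Dcn. For Gapdh, the glycolytic enzyme, the levels were 3462 and 3183 CPM, and for Phgdh, which starts serine synthesis, 1036 and 787 CPM. G1 genes had 0.15 and 0.01, which turned to -0.04 and -0.20 with no limit on Dcn, and the second to -0.05 with TMM factors, and inhibitors and p53 targets had -0.03 and 0.06, the first 0.02 with equal weight for each cell and the second -0.01 with no limit on Dcn. Of these inhibitors and p53 targets, the death receptor gene Fas (1.40) and Eda2r (1.03), both p53 targets, were the 2 of 16 tested at least 2-fold higher (background 1.81%), and they were named after their values had been seen. The state list had -1.12 and -1.54 over 5 genes, 3 of them at least 2-fold lower (background 0.922%), with Aspn, a matrix protein, at 15.4 and 2.48 CPM.

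The 10 highest ratios of MSA-2 over untreated in the mitotic-gene-high cells included those of the 3 tested neutrophil markers. S100a8 and S100a9, the calprotectin subunits, stood at 1.66 and 162 CPM and at 4.61 and 239 CPM (log2 5.94 and 5.42), and in the other cells the log2 ratios were 6.22 and 6.42. In the untreated mitotic-gene-high cells 74.1% of the S100a8 and 89.3% of the S100a9 UMIs came from 1 cell each, and with each group's top cell left out the log2 ratios were 6.72 and 7.23. The untreated levels thus came mostly from a single cell, and without it the ratios were higher. Retnlg, a neutrophil granule gene, had 2 UMIs, both in 1 cell, in the untreated and 49.5 CPM in the MSA-2 cells, a log2 ratio without added CPM with a counting interval of 6.79 to 11.70. G0s2, which inhibits lipolysis, stood at 0.615 and 69.3 CPM, Lcn2, an iron-binding acute-phase protein, at 0.246 and 43.1 CPM, and Slpi, a protease inhibitor, at 3.94 and 71.6 CPM. Saa3, serum amyloid A3, stood at 2.28 and 114 CPM, and Slfn4, Cxcl3 and Ptx3 had log2 ratios of 4.32, 3.88 and 3.41.

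The neutrophil transcripts were also seen in the other kinds of barcodes examined in the MSA-2 library. Neutrophil barcodes held 48931 CPM of S100a9, 29069.7 CPM of S100a8, 9105 CPM of Retnlg and 11063 CPM of G0s2. S100a8 stood at 121 CPM in Col1a2-high barcodes, a class also added after the data had been seen, beside 162 CPM in the mitotic-gene-high and 142 CPM in the other cells. In monocyte barcodes the level was higher, 715 CPM of S100a8. Between the 3 classes under the limit of 0.03% on immune genes the levels were close, and a UMI of S100a9 was seen in 1.95% of untreated against 98.6% of MSA-2 mitotic-gene-high cells. The number of neutrophil barcodes was 11 without and 2675 with MSA-2. Saa3 and Ptx3 differed from this, with 11942 and 2581 CPM in Col1a2-high barcodes and 321 and 37.5 CPM in neutrophil barcodes. How much of these transcripts in the mitotic-gene-high cells is free RNA was not tested.

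The 10 lowest ratios were led by class II antigen presentation genes, which macrophages, dendritic cells and B cells use. H2-Eb1 stood at 99.5 and 3.05 CPM, H2-Aa at 74.9 and 3.43 CPM, H2-Ab1 at 84.2 and 4.39 CPM and Cd74, their chaperone, at 138 and 8.39 CPM. The log2 ratios were -4.63, -4.10, -3.98 and -3.89, beside -4.26, -3.92, -3.72 and -3.54 in the other cells. A UMI of H2-Eb1 was seen in 95.4% of untreated against 9.25% of MSA-2 mitotic-gene-high cells. In monocyte barcodes Cd74 stood at 7318 and 409 CPM, and in Col1a2-high barcodes H2-Eb1 stood at 102 and 4.58 CPM. The untreated level of H2-Eb1 in the mitotic-gene-high cells was close to that in Col1a2-high barcodes, and the part that free RNA has in it was not tested. The macrophage marker list, of which Cd74 is a part, had medians of -1.83 and -1.67 in the mitotic-gene-high and other cells, with 5 of 6 tested genes at least 2-fold lower in each (background 0.922% and 1.59%).

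The other genes of the lowest 10 had fewer UMIs in the untreated mitotic-gene-high cells. In the MSA-2 mitotic-gene-high cells not all of them had fewer, with 60 UMIs of Igkc against 32 of H2-Eb1. Acta2, smooth muscle actin, stood at 21.2 and 2.67 CPM, with 46.4% of its untreated UMIs in 1 cell, and the log2 ratio of -2.60 was -2.00 with top cells left out. In the other cells the log2 ratio of Acta2 was -0.62, and -1.08 with top cells left out. Mgp, a matrix protein that inhibits calcification, stood at 17.7 and 2.48 CPM, and its ratio of -2.43 became -1.90 without top cells. Under stricter marker limits, with only 24 untreated and 48 MSA-2 cells chosen, the ratio of Mgp was 2.58. Igkc had -2.20, and -0.95 without top cells, but 1.03 with the top 20% of cells and 1.47 with immune genes under 0.1%, a limit chosen after seeing the data, so that its direction depends on the setting. Bbs2, a protein of the cilium, stood at 26.9 and 4.67 CPM and S100a16, a calcium-binding protein, at 17.3 and 2.77 CPM, with log2 ratios of -2.30 and -2.28 beside -1.85 and -2.47 in the other cells. Acta2 and Mgp are also known from stromal cells and Igkc from plasma cells, and the part of such cells in these values was not tested.

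Among genes with a mean of at least 50 CPM, 5 on each side differed most between the mitotic-gene-high and the other cells in the ratio of MSA-2 over untreated. More positive in the mitotic-gene-high cells were Itgbl1, an integrin-related protein, at -0.10 against -0.81, Tenm3, a teneurin, at 0.55 against -0.07, and Kirrel3, an adhesion molecule, at 0.22 against -0.40. Robo1, a guidance receptor, had -0.22 against -0.80, and Itgb5, an integrin chain, -0.64 against -1.19, and the differences of the 5 lay between 0.55 and 0.71. More negative were S100a9, with a difference of -1.01, and Hmox1, heme oxygenase, at 44.96 and 36.7 CPM in the mitotic-gene-high and 58.5 and 94.2 CPM in the other cells. With top cells left out the direction of S100a9 turned, to 7.23 in the mitotic-gene-high against 6.75 in the other cells. The remaining 3 were choosing genes, Aurka (-0.79), Cdc20 (-0.73) and Plk1 (-0.73), for which the threshold itself enters the difference. None of these differences has a replicate, and they were not tested.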

How the data were processed

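Single-cell RNA of pooled MC38 tumors was measured in 1 untreated and 1 MSA-2 library made with 10x 3′ chemistry. The authors deposited counts, as whole UMIs per gene and barcode over 32285 features, with no normalization. The file headers name Cell Ranger 7.0.1 and the submitters' processing notes Cell Ranger 7.0.0, Seurat 4.3.0 and build mm10. The paper's methods name other versions of both tools. They also state that cells were sorted, and call the cells kept after filtering immune cells. A symbol shared by 2 identifiers kept its name on the one with more UMIs.

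UMIs were summed over the cells of each of the 4 groups (mitotic-gene-high or other, untreated or MSA-2), scaled to the same total as CPM and compared as log2 ratios with 1 CPM added. Genes with a mean of at least 10 CPM over the 4 groups were kept, and 2-fold was the call. Nothing was tested between conditions, since each has 1 library and cells are not replicates. Levels carry exact Poisson, shares exact Clopper-Pearson and ratios conditional binomial intervals, at 95%, and median depth an order-statistic interval over cells. The computations were tested on simulated data. Doublets were left in, and removing the calls of Scrublet (732 untreated and 579 MSA-2 barcodes) was an alternative.

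Named genes were the 6 choosing genes, from each list 2 to 6 genes with the highest level in mitotic-gene-high cells and those opposite to their list, the 20 highest and 10 lowest ratios over the other cells, the 10 highest and 10 lowest ratios of MSA-2 over untreated, and 5 genes on each side of the difference between cells (mean of at least 50 CPM), and a few of these genes are left out of the text. The cells and lists were chosen with earlier results of these data known. Chosen after seeing the data were the monocyte barcodes (Tyrobp and Fcer1g at least 0.2%, Ly6c2 at least 0.05% of UMIs, at least 500 UMIs), the Col1a2-high barcodes (at least 0.1% Col1a2, less than 0.03% immune genes and at least 8000 UMIs), the merging of 10 bins to 9 because of cells without a UMI, and 4 alternatives on Dcn, on Col1a2 with Dcn, on the immune limit and on top cells. Other alternatives changed the depth, mitochondrial and marker limits, the share of cells chosen, the score, the weight of cells, the scaling (TMM), the CPM added and the gene filter. Promoters came from a RefSeq table of build GRCm38.p6. Tools were Python 3.11.15, numpy 2.4.6, scipy 1.17.1, pandas 2.3.3, scanpy 1.11.5, matplotlib 3.10.9, R 4.3.3 and edgeR 4.0.16 for TMM factors.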

Additional observations from a re-analysis of the deposited data

How the results depend on the processing

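Of the values computed for the main comparisons under each alternative, 178 stayed within their counting interval or moved by less than 1.5 times. Another 37 moved further, with the cause not tested unless the setting itself gives it (fewer genes or cells). For list medians the interval ran between the medians of the lower and of the upper counting bounds of the genes. Among the remaining list and gene values, 3784 stayed within their interval, 1438 moved and 10, past 2-fold, reversed in sign. Stricter marker limits left 720 cells and 72 mitotic-gene-high cells, 24 untreated and 48 MSA-2, so values under them rest on few cells. The log2 ratio of the share of these cells (0.11) was 0.90 with stricter marker limits, -0.45 with the top 5% and 0.40 with the top 20%, and has no value with the top 10% taken in each library. Genes higher in both libraries (111) numbered 73 with 10 CPM added and 45 at a mean of at least 50 CPM, and lower genes (6) 14 with stricter limits, 3 with the top 20%, 0 with 10 CPM added and 2 at 50 CPM. Genes higher in MSA-2 mitotic-gene-high cells (145) numbered 629 with stricter limits, 83 with 10 CPM added, 369 without a filter and 55 at 50 CPM, and lower genes (74) 362, 31, 214 and 24 in turn.

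The G2 and mitosis median was 1.67 with stricter limits, 1.34 with TMM and 1.11 with 10 CPM added in the untreated library, and 0.85 with 10 CPM added in the MSA-2 library. The S phase median was 0.45 with stricter limits, 0.0377 with the top 20%, 0.0488 with equal weight and 0.0518 at 50 CPM in the untreated library, and -0.00578 with Dcn not limited in the MSA-2 library. The interferon median of MSA-2 over untreated in mitotic-gene-high cells was 1.67 with stricter limits, 1.13 with 10 CPM added, 1.16 with Dcn not limited and 1.16 with Col1a2 and Dcn under 0.5%, and in the other cells 1.12, 1.08, 1.13 and 1.14 in turn, and 1.15 with TMM. The ratio of median UMIs was 1.04 and 1.10 with stricter limits, which allow no UMI of the immune and endothelial genes and so bear on depth themselves.

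Among gene ratios past 2-fold, signs reversed for 4 genes, and the cause was not tested. Igkc over the other cells in the MSA-2 library was 0.77 with stricter limits, 3.16 with the top 20%, 2.13 with immune genes under 0.1% and 0.20 with top cells left out, and its MSA-2 over untreated ratio was 1.03 with the top 20% and 1.47 with immune genes under 0.1%. S100a9 over the other cells in the untreated library was -0.47 with stricter limits and -0.45 with top cells left out. With stricter limits Acta2 over the other cells in the MSA-2 library was 0.37 and Mgp of MSA-2 over untreated was 2.58. The limits on Dcn, on immune genes and the top cells were chosen after seeing the data. No paired analysis was possible because each condition has 1 library.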
